A study of Homo sapiens with 3 samples.

Results

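Replication-dependent histone genes encode the core histones H2A, H2B, H3 and H4 and the linker histone H1 that package newly made DNA. They were taken as all array probes, control spots left out, whose gene name begins with HIST1H, HIST2H, HIST3H or HIST4H, which gave 69 genes with 85 probes of 43299 gene names with 58171 probes on the array. RNA was measured on 1 array each from HCT116 cells, a human colorectal cancer cell line, transfected by Lipofectamine 3000 with siRNA against SMARCA4 (SMARCA4-KD1, shortened to KD1, and SMARCA4-KD2, shortened to KD2) or with a scrambled negative control (NC). The labels list SMARCA4 siRNA-1 and siRNA-2 but do not say which array received which, and the numbers of KD1 and KD2 come from the treatment field. SMARCA4 is an ATPase of the SWI/SNF chromatin remodelling complex, and the study asked how it acts with an arginine methylation mark on histone H4. The sample titles name SMARCA4, whereas that field names PRMT1, and the time after transfection is not given in the sources used here.

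Most of these genes lie in the HIST1 cluster on chromosome 6, and smaller groups lie on chromosome 1 (HIST2 and HIST3) and chromosome 12 (HIST4). They are transcribed mainly in S phase, when DNA is replicated. Their mRNAs carry no introns and usually end in a conserved stem-loop instead of a poly(A) tail. The stem-loop is bound by SLBP, which serves processing, translation and decay of the mRNA. A minority of the genes also make polyadenylated transcripts, mostly in cells that have left the cycle. The primer used to make cDNA for labelling is not given in the sources used here, so whether the signals come from stem-loop-ended or polyadenylated transcripts cannot be told apart for most probes.

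The SMARCA4 probe had a processed signal of 3960 in KD1, 4129 in KD2 and 14026 in NC, which was 3.75-fold and 3.47-fold lower than NC after scaling. PRMT1 gave 9801, 10147 and 7683, or 0.27 and 0.37 (log2) above NC, so SMARCA4 and not PRMT1 had the lower signal in the knockdown arrays. Of the epithelial and colorectal markers, 5 of 6 were well above background on all 3 arrays, and VIL1 was not on any. Of the leukocyte markers, PTPRC passed at low signals (37.0 to 49.4) and CD3E did not, and of the fibroblast markers only COL1A1 passed, at 348 to 477. Between 45.7% and 47.3% of the probes of an array were well above background, and 300 probes with repeated spots had a median SD of 0.029 to 0.037 (log2) within an array. Both knockdown arrays were on one slide and the NC array on another slide, scanned separately, so slide and treatment cannot be told apart. There was 1 array per group, so differences between arrays below carry no replicate error, and only the extraction software's own error estimate is available for them. That estimate was 0.20 to 0.36 (log2) for a difference between 2 arrays of the 58 histone genes well above background on all arrays, with a median of 0.20.

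The probe sequences show which probes held the stem-loop at the end of the mRNA. Of the 85 histone probes, each 60 bases long, 6 held the whole stem-loop and 3 only its 5′ arm, and the other 76 held none. The stem-loop was found as a stem of 6 bases that begins GG, a loop of 4 bases that begins TTT, and the complement of the stem. Stretches of 30 bases are shown for 5 of the 6 probes to display how alike this element is between histone types, with the stem-loop in capitals.
HIST1H2AI: ggaaccaaaGGCTCTTTTCAGAGCCaccta
HIST1H2BF: acccaatcccaaaGGCTCTTTTAAGAGCCa
HIST1H3H: atacccaaaGGCTCTTTTCAGAGCCaccca
HIST2H3A: cgtatccaaaaGGCTCTTTTCAGAGCCacc
HIST1H4K: ctatcaacaaaaGGCCCTTTTTAGGGCCcc
Another 6 probes lay at least 500 bases downstream of a second probe of the same gene and were richer in A and T, with a median GC content of 36.7% against 53.3% for the other 79 probes. The distal probe of HIST1H2BK, at chr6:27106191-27106250 (hg19), is 8246 bases from the probe at chr6:27114437-27114496, and its initial 30 bases are shown because this gene had the largest difference measured on all arrays.
HIST1H2BK distal probe: ggtccattccttctctctaataatcattta
Histone genes of one type are close copies, and 27 of the 85 probes shared a run of 20 or more identical bases with a probe of another member. This was the case for 10 of 23 H2B probes, 7 of 20 H4 probes, 6 of 22 H2A probes, 4 of 14 H3 probes and 0 of 6 H1 probes. How far a probe also bound the transcripts of its near copies was not tested, so values of single genes within a type are uncertain.

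Upstream sequence was read from RefSeq (GRCh38.p14), where all 69 members matched a current symbol and 62 had a promoter entry. For each gene the 250 bases before the start listed first were searched on both strands for the octamer ATTTGCAT, which POU2F1 is known to bind, for TATAAA, for CCAAT and for GGTCCG, the core of the H4 promoter element that HINFP is known to bind. The motif GGTCCG was added after some H4 promoters had been read. The octamer was present in 14 of 18 H2B and 11 of 15 H2A promoters, in 1 of 11 H3 promoters, and in 0 of 6 H1 and 0 of 12 H4 promoters, compared with 1.66% of 27305 RefSeq promoters. The H2A and H2B genes of a head-to-head pair share much of this window, and the octamer in the HIST1H3D window lies at a start site shared with HIST1H2AD. GGTCCG was present in 11 of 12 H4 promoters and in 1 each of the H2A, H2B and H3 promoters (9.33% of all promoters). CCAAT was present in 3 of 12 H4 promoters and in all 6 H1, 15 H2A, 18 H2B and 11 H3 promoters (33.0% of all promoters), and TATAAA in 41 of the 62 (11.1% of all promoters). A match is a description of these letters only. The windows of 2 H2B and 2 H4 genes are shown because these types stood at opposite ends of the measured differences. Capitals mark the octamer, which begins 46 bases before the start of HIST1H2BK and 48 before that of HIST1H2BM, and GGTCCG, which begins 46 bases before the starts of HIST1H4H and HIST1H4E.
HIST1H2BK (H2BC12), chr6:27146859-27147108, minus strand: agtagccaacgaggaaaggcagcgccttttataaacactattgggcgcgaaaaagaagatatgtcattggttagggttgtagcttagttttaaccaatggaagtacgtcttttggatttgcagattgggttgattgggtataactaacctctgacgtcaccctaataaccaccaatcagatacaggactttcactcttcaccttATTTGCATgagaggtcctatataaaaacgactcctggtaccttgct
HIST1H2BM (H2BC14), chr6:27814772-27815021, plus strand: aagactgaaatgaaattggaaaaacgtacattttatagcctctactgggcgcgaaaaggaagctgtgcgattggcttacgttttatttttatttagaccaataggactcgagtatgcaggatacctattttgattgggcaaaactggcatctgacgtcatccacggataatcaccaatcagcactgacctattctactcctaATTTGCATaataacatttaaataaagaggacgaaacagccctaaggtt
HIST1H4H (H4C8), chr6:26285535-26285784, minus strand: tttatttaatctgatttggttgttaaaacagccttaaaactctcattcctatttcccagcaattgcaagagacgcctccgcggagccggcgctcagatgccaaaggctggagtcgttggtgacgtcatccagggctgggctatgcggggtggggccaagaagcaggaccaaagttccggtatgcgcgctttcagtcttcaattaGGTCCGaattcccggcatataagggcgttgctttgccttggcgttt
HIST1H4E (H4C5), chr6:26204360-26204609, plus strand: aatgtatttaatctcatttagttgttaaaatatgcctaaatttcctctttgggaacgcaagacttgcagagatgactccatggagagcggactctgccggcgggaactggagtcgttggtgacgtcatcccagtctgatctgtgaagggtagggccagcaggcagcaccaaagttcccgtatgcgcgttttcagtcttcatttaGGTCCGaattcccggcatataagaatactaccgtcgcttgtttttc

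Of the 69 genes, 59 were well above background on at least 1 array and 58 on all 3. The 10 genes below background on all arrays were HIST1H1A, HIST1H1B, HIST1H2AL, HIST1H2APS1, HIST1H2BA, HIST1H2BE, HIST1H4G, HIST2H2BA, HIST2H2BF and HIST4H4, with signals of at most 17.4. The measured genes were 4 H1, 15 H2A, 15 H2B, 13 H3 and 12 H4 genes. Signals were scaled to the 75th percentile of each array, and differences are given as log2 of the scaled signals.

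At 1.5-fold or more in KD1 against NC, 1 of the 59 histone genes was lower and 5 were higher, while 12.2% of all 22620 measured genes were lower and 11.2% were higher. In KD2 against NC, 5 histone genes were lower and 2 were higher, against 9.77% and 10.1% of all genes. For the mean of both knockdowns, 1 was lower and 4 were higher, against 10.4% and 9.94% of all genes. The shares of histone genes past 1.5-fold were thus 1.69% and 8.47% in KD1 and 8.47% and 3.39% in KD2. Each was below the share of all genes, but the shares of 8.47%, 5 genes each, were near it. The sets also differ in detection, as 58 of the 59 histone genes and 19497 of all 22620 genes were well above background on all arrays. Both comparisons use the same NC array. The gene lower in KD1 was HIST1H2BF, and those higher were HIST1H2BK, HIST2H2AA4, HIST3H2A, HIST1H2BI and HIST1H1T. HIST1H1T passed the background filter through the knockdown arrays alone, and its NC value was set to the lowest signal above background. It is also counted among the higher genes for the mean. In KD2, HIST1H2BF, HIST1H4H, HIST1H4E, HIST1H2AC and HIST1H2AA were lower and HIST1H2BK and HIST2H2AA4 were higher.

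The median log2 difference of the 59 genes was -0.11 in KD1 and -0.18 in KD2, with 36 and 42 genes below 0, and became 0.19 and 0.13 when the arrays were centred on 8 spike-in probes instead. The median of all genes was 0.00 and 0.02, and 0.30 and 0.34 with the spike-ins, so this centring moved all genes up together. In RNA from a whole culture, fewer cells in S phase and less histone RNA per cell cannot be told apart. Both centrings subtract the same value from every probe of an array, so positions relative to the median of all genes cannot differ between them. Relative to that median, the histone genes stood at -0.11 and -0.20. The types differed in where they lay around this median, as the plot by type shows.

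**Figure D1:**
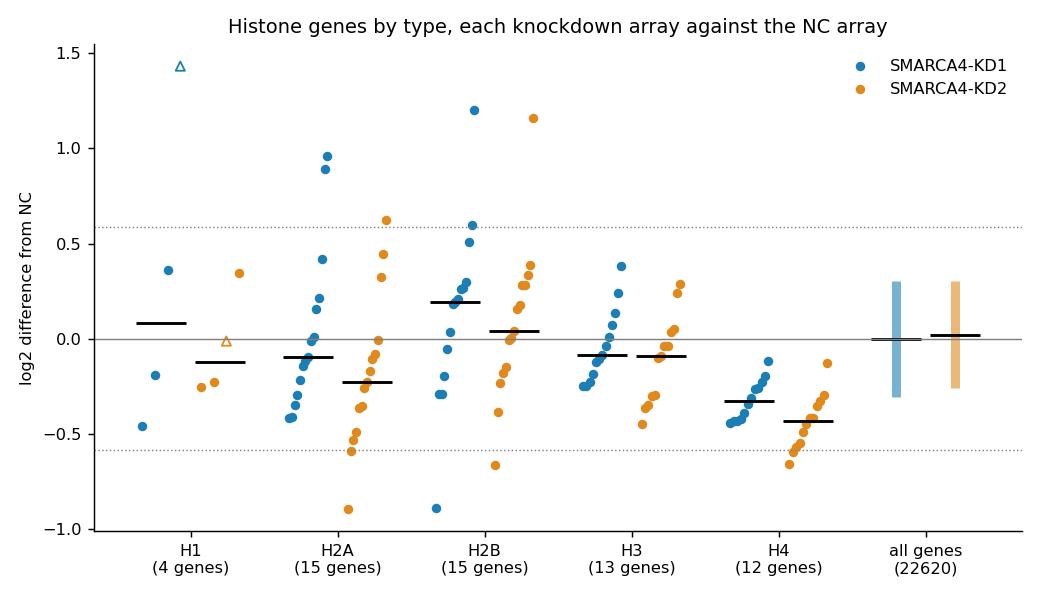
Log2 difference from NC (y axis, 75th-percentile scaling) of each measured histone gene in KD1 (blue) and KD2 (orange), by histone type. Black lines are medians, bars at the right span the quartiles of all 22620 genes, dotted lines mark 1.5-fold and open triangles mark HIST1H1T, which was not well above background in NC and was set there to the lowest signal above it. All 12 H4 genes lie below 0 on this scale, whereas with spike-in centring 7 and 10 of them do.

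H4 forms the centre of the nucleosome with H3, and its genes encode the same or nearly the same protein. All 12 measured H4 genes were lower than NC in KD1, with a median of -0.33 and a range of -0.44 to -0.11, although with spike-in centring only 7 of 12 were below 0 and the median was -0.03. In KD2 all 12 were lower, with a median of -0.43 and a range of -0.66 to -0.13, although with spike-in centring 10 of 12 were below 0 and the median was -0.11. Relative to the median of all genes, the H4 median was -0.33 in KD1 and -0.45 in KD2, and all 12 genes lay below the all-gene median. By construction, both centrings give the same values here. No H4 gene reached 1.5-fold in KD1, and 2 did in KD2. The differences were larger than the extraction error for 10 of 12 H4 genes in KD1 and 11 of 12 in KD2, compared with 36 and 40 of the 58 histone genes measured on all arrays. The quartiles of all 22620 genes, -0.31 and 0.30 in KD1 and -0.26 and 0.30 in KD2, also lay past the histone genes' median error of 0.20. How many of all genes passed their own error was not counted.

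HIST1H4H had a signal of 1951 in KD1, 1614 in KD2 and 2485 in NC, or -0.43 and -0.66 (log2). HIST1H4K gave 4935, 4329 and 6275, or -0.43 and -0.57. HIST1H4A gave 1020, 917 and 1309, or -0.44 and -0.55. In each of these genes the NC array was the highest and KD2 the lowest. The H4 genes closest to NC were HIST1H4C, with 122188, 126306 and 134851 (-0.23 and -0.13), HIST1H4F, with 910, 714 and 929 (-0.11 and -0.41), and HIST1H4B, with 24710, 22744 and 27834 (-0.26 and -0.32). All 17 H4 probes well above background on every array were below 0 in both knockdowns under percentile scaling (-0.44 to -0.11 and -0.68 to -0.13). Only HIST1H4A, HIST1H4C, HIST1H4D, HIST1H4K and HIST1H4L had more than 1 of these probes. In the other H4 genes the choice of probe could not be checked. The stem-loop probe of HIST1H4K stood at -0.34 and -0.36, and its other probe at -0.43 and -0.57.

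**Figure D2:**
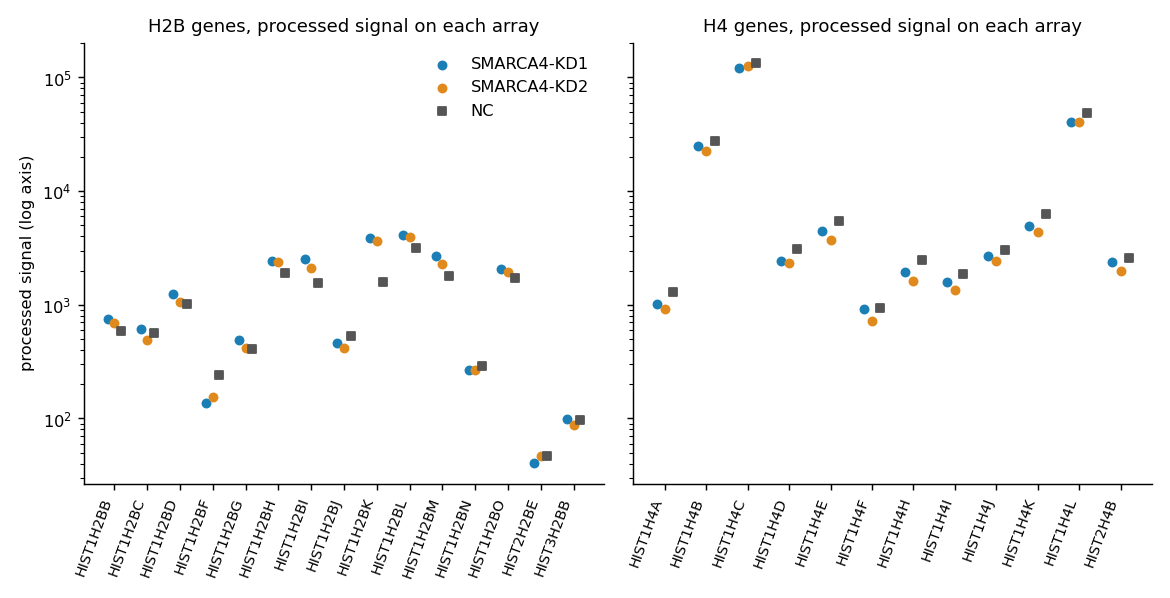
Processed signal before scaling (y axis, log) of the measured H2B genes (left) and H4 genes (right) on the KD1, KD2 and NC arrays, 1 point per gene and array. The NC square is the highest of the 3 points for every H4 gene, while H2B genes such as HIST1H2BK (3861, 3620 and 1584) have it lowest.

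H2B pairs with H2A on the outside of the nucleosome. The 15 measured H2B genes spread more widely than the H4 genes, from -0.89 to 1.20 in KD1 and from -0.66 to 1.16 in KD2. Their median was 0.19 and 0.04 under percentile scaling, with 10 and 9 genes above 0, and 0.49 and 0.36 with spike-in centring. HIST1H2BK had the largest difference of the histone genes measured on all arrays, with 3861 in KD1, 3620 in KD2 and 1584 in NC at its distal probe, 2.30-fold and 2.23-fold higher. Both knockdown arrays were above NC at this probe, by more than its extraction error. At its other probe, the same gene gave 1370, 1096 and 939, or 0.46 and 0.19 (log2). The gap between its probes was 0.74 in KD1 and 0.97 in KD2.

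HIST1H2BI gave 2519, 2099 and 1570, or 0.60 and 0.39 (log2). HIST1H2BM gave 2695, 2302 and 1784, or 0.51 and 0.34. Their probes shared a run of 23 identical bases, and whether each also read the other gene's transcripts was not tested. HIST1H2BF went the other way, with 138 in KD1, 156 in KD2 and 241 in NC, or 1.85-fold and 1.58-fold lower. This probe held the whole stem-loop and is shown above. HIST1H2BJ (458, 414 and 527) and HIST1H2BN (267, 266 and 288) were also below NC under percentile scaling, by -0.29 and -0.38 and by -0.19 and -0.15. Among measured H2B genes with a promoter entry, the 11 with the octamer had medians of 0.19 and 0.15, and the 4 without it 0.08 and -0.05, with overlapping ranges.

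The 15 measured H2A genes had a median of -0.09 in KD1 and -0.23 in KD2, with 9 and 12 genes below 0, which became 0.21 and 0.09 with spike-in centring. The genes furthest above NC were HIST2H2AA4, with 461, 352 and 223, or 1.95-fold and 1.54-fold higher, and HIST3H2A, with 76.8, 50.05 and 39.0, or 1.85-fold and 1.25-fold higher. HIST1H2AE followed with 578, 568 and 407, or 0.42 and 0.45 (log2). The genes furthest below were HIST1H2AC (892, 762 and 1120, or -0.41 and -0.59), HIST1H2AI (582, 515 and 728, or -0.41 and -0.53) and HIST1H2AJ (12193, 10652 and 14636, or -0.35 and -0.49). HIST3H2A was among the dimmer H2A probes, and its extraction error was 0.25 in KD1 and 0.26 in KD2. In the 10 measured H2A genes with the octamer the medians were -0.05 and -0.20, and in the 4 without it 0.30 and -0.02. The ranges overlapped, and the 4 without it ran from -0.41 to 0.96 in KD1.

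Many H2A and H2B genes lie head to head and share the sequence between their starts. Of 12 such pairs on the array, 11 were measured, and the difference of H2B minus H2A within a pair is the same under percentile scaling and spike-in centring, which each subtract 1 value per array. The H2B gene stood above its H2A partner in 6 of 11 pairs in KD1 and in 7 of 11 in KD2, with medians of 0.10 and 0.22 and ranges of -0.94 to 1.42 and -0.59 to 1.51. The pair HIST1H2AH and HIST1H2BK differed most, by 1.42 and 1.51, and at that pair the H2B value came from the distal probe. HIST1H2AJ and HIST1H2BM differed by 0.86 and 0.83, and HIST1H2AI and HIST1H2BL by 0.71 and 0.81. In these pairs the H2A gene lay below NC and the H2B gene above it under percentile scaling. The H2A gene stood above in HIST1H2AD and HIST1H2BF (-0.90 and -0.59), in HIST3H2A and HIST3H2BB (-0.94 and -0.51), in HIST1H2AE and HIST1H2BG (-0.24 and -0.44) and in HIST1H2AG and HIST1H2BJ (-0.28 and -0.22). In HIST2H2AC and HIST2H2BE the difference was -0.14 and 0.10. Partners of one shared promoter region were thus unequal in size and, in some pairs, in direction.

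**Figure D3:**
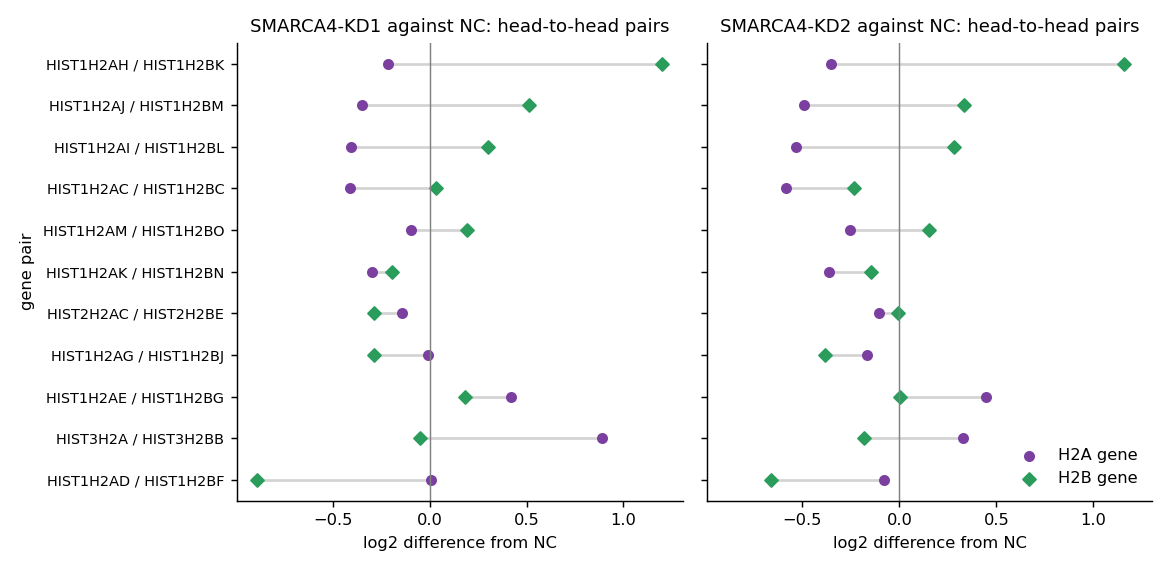
Log2 difference from NC (x axis, percentile scaling) of the H2A gene (purple) and H2B gene (green) of 11 head-to-head pairs, with KD1 on the left and KD2 on the right. The grey line is the difference within a pair, which runs from -0.94 to 1.42 in KD1 and from -0.59 to 1.51 in KD2.

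H3 carries the tail with many of the best known methylation and acetylation sites. All 13 H3 genes were well above background, none reached 1.5-fold in either knockdown, and their range was narrow (-0.25 to 0.38 and -0.44 to 0.29). Their median was -0.08 and -0.09, with 8 and 9 genes below 0, and became 0.22 and 0.23 with spike-in centring. HIST1H3A gave 9166, 8007 and 6627, or 0.38 and 0.24. HIST1H3E (6470, 6444 and 5157, or 0.24 and 0.29) and HIST1H3C (24331, 21975 and 20923, or 0.13 and 0.04) were next. The lowest were HIST1H3B, with 3890, 3273 and 4356 (-0.25 and -0.44), HIST1H3D, with 5059, 4557 and 5663 (-0.25 and -0.35), and HIST1H3F, with 2081, 1831 and 2300 (-0.23 and -0.36). At HIST1H3H the probe without the stem-loop stood at -0.08 and -0.29 and the stem-loop probe at 0.28 and 0.23, so under percentile scaling the direction depended on the probe.

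H1 binds the linker DNA between nucleosomes, and only 3 of its 6 genes were well above background on all arrays. HIST1H1C, which encodes a widely expressed H1, gave 11259, 10749 and 8258, or 0.36 and 0.35. HIST1H1D gave 446, 505 and 578, or -0.46 and -0.23. HIST1H1E gave 3349, 3092 and 3608, or -0.19 and -0.25. HIST1H1C was thus higher than NC and the other two were lower under percentile scaling.

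Genes named for testis expression were mostly at low signals. HIST1H1T, the member that passed the background filter through the knockdown arrays alone, had 50.5 in KD1 and 17.9 in KD2 and was not well above background in NC (3.63), so KD1 was at least 2.70-fold higher and no fold is given for KD2. HIST1H2AA gave 40.8, 19.0 and 34.6, or 0.16 and -0.89, and HIST1H2BA was below background on all arrays. HIST3H3 gave 59583, 59204 and 55877, or 0.01 and 0.05. The HIST3H3 probe matched the HIST1H3C probe at 44 of 55 overlapping bases, with a longest shared run of 14 bases, and whether other H3 transcripts gave part of its signal was not tested.

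A short list of members known to make polyadenylated transcripts as well, which may not be complete, held 5 genes. These were HIST1H1C, HIST1H2AC, HIST1H2BD, HIST1H2BK and HIST2H2BE. They did not move together, as HIST1H2BK was above NC, HIST1H2AC was below it under percentile scaling, HIST1H2BD gave 1234, 1060 and 1007 (0.21 and 0.04), and HIST2H2BE gave 40.2, 47.1 and 46.3 (-0.29 and -0.01). At HIST1H2AC all 3 probes were below NC under percentile scaling. The probe 14419 bases downstream gave 161, 169 and 221, or -0.54 and -0.42. The probe at chr6:26124403-26124462 (hg19), next to the brightest one, gave 99.5, 73.6 and 162, or -0.79 and -1.17. The distal probe of HIST2H2BE was well above background in KD2 alone, at 31.6 against 5.82 in KD1 and 5.32 in NC.

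In 10 genes with more than 1 probe well above background on all arrays, the probes of a gene lay on the same side of 0 in 9 of 10 genes in each knockdown under percentile scaling, the exception being HIST1H3H. The gap between the probes' mean differences ran from 0.00 in HIST1H2AI to 0.85 in HIST1H2BK, with a median of 0.16.

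**Figure D4:**
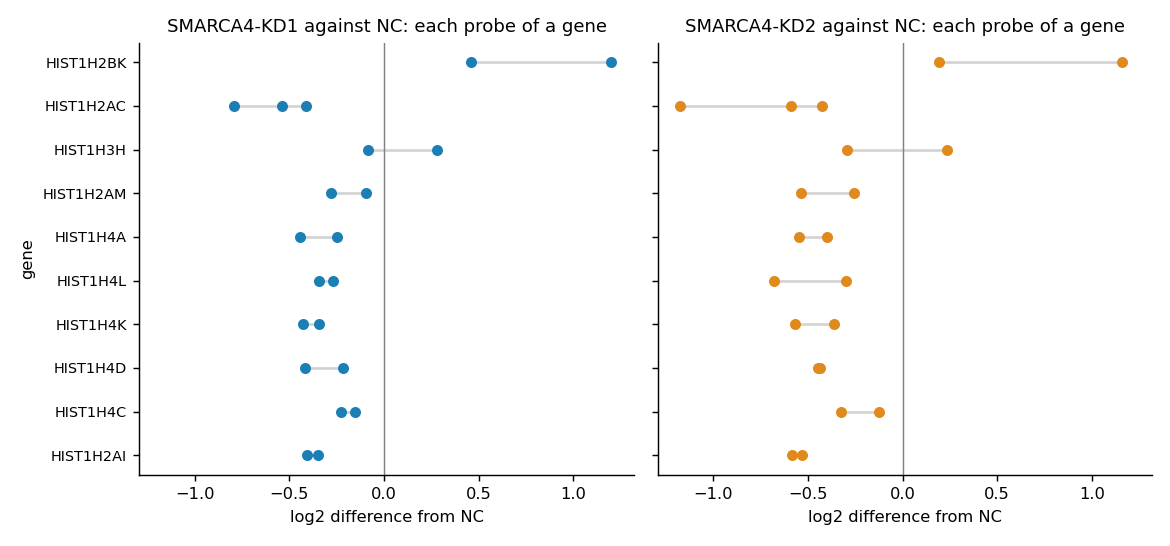
Log2 difference from NC (x axis, percentile scaling) of every probe of the 10 histone genes with more than 1 probe well above background on all arrays, in KD1 (left) and KD2 (right). Probes of the H4 genes lie below 0 on this scale, but those of HIST1H4L are 0.07 apart in KD1 and 0.38 apart in KD2 (-0.68 and -0.30). Those of HIST1H2BK are 0.74 and 0.97 apart.

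By cluster, the 49 measured HIST1 genes had medians of -0.11 and -0.23, the 7 HIST2 genes -0.12 and -0.11 and the 3 HIST3 genes 0.01 and 0.05, which spike-in centring moved up by the shift given above. The HIST1 genes fell into 3 stretches separated by over 500000 bases, at chr6:25726563-26285556, chr6:27100318-27115305 and chr6:27775286-27861647 (hg19). The H4 medians in these stretches were -0.39, -0.31 and -0.34 in KD1 and -0.45, -0.49 and -0.35 in KD2, from 7, 1 and 3 genes. The H2B medians were 0.21, 0.46 and 0.25 in KD1 and 0.04, 0.39 and 0.22 in KD2, from 7, 2 and 4 genes. The 2 H2B genes of the middle stretch lay on opposite sides of NC, so their median describes neither. They were HIST1H2BK (1.20 and 1.16, at its distal probe) and HIST1H2BJ (-0.29 and -0.38). The H2A medians were 0.16, -0.11 and -0.32 in KD1 and -0.08, -0.26 and -0.43 in KD2, from 5, 2 and 4 genes. Within each stretch the H4 median lay below the H2B median under percentile scaling, an order that spike-in centring cannot change. In the stretch at the highest coordinates all 4 H2A genes were below NC under percentile scaling.

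Between the knockdown arrays, 0 histone genes were lower and 2 were higher by at least 1.5-fold in KD1 than in KD2, against 3.53% and 3.06% of all genes. The genes were HIST1H1T and HIST1H2AA, both of the testis list and dim in KD2, at 17.9 and 19.0. The lowest signal well above background on the KD2 array was 16.2. The median difference was 0.11 over the 59 genes, with 46 above 0, compared with -0.01 over all genes. It was 0.14 for H2A, 0.09 for H2B, 0.10 for H3 and 0.12 for H4. These arrays share a slide.

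Both knockdown arrays were then tested against NC with limma, fitted across all 22620 genes with 1 residual degree of freedom. No histone gene passed at an adjusted p of 0.05, nor did any other gene (0.0% of all genes), and the lowest adjusted p, 0.0939, included HIST1H2BK. At an unadjusted p of 0.05, 15 of the 59 histone genes were lower and 9 higher, against 14.5% and 16.2% of all genes. Of the H4 genes 9 of 12 were among the lower, and of the H2B genes 5 of 15 were among the higher and 1 among the lower. When only probes well above background on all arrays were kept, 11 of 58 histone genes fell and 6 rose at an adjusted p of 0.05, against 12% and 14.5% of all 19504 genes. The 11 that fell were 6 H4, 4 H2A and 1 H2B genes, and the 6 that rose were 3 H2B, 2 H2A and 1 H1 genes. The methods' t-test called 0 histone genes at an unadjusted p of 0.01 with 1.5-fold, and 0 after adjustment, against 436 and 0 of all 22620 genes. These p-values measure the spread between the knockdown arrays alone, because the NC array has no replicate.

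Genes that act on histone genes, mRNAs or proteins, and genes of DNA replication, were set beside the same all-gene medians. These lists were written by hand and are described by counts, without a test. Their counts at 1.5-fold stand against 12.2% of all genes lower and 11.2% higher in KD1, and 9.77% lower and 10.1% higher in KD2. Of 31 genes of DNA replication, active in the same phase as histone synthesis, 25 lay below 0 in KD1 and 27 in KD2, with medians of -0.23 and -0.35, although with spike-in centring 13 and 17 did and the medians were 0.07 and -0.03. At 1.5-fold, 6 and 9 of them were lower and 0 higher. LIG1 (DNA ligase 1) gave 2598, 2566 and 4214 (-0.78 and -0.75), while RRM2, a ribonucleotide reductase subunit, gave 5129, 4606 and 3401 (0.51 and 0.41). CDC6, which loads the replicative helicase, gave 142, 93.7 and 96.9 (0.47 and -0.08). The part of this list's difference in the histone values was not tested.

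Of 23 histone chaperones, which carry histones to DNA, 6 were lower by 1.5-fold in each knockdown and 3 and 1 were higher, with medians of -0.19 and -0.14, which spike-in centring turned to 0.11 and 0.18. HJURP, the chaperone of the centromeric H3 variant CENPA, gave 4129, 4630 and 11875 (-1.61 and -1.39), and ANP32E, which removes H2A.Z, gave 1676, 1946 and 3518 (-1.15 and -0.89). ASF1A, a chaperone of H3 and H4, gave 242, 214 and 128 (0.83 and 0.71), and IPO4, an importin for histones, gave 2064, 1966 and 1292 (0.59 and 0.57). Among 18 genes of histone mRNA processing the medians were 0.25 and 0.09, 4 and 3 were higher by 1.5-fold and 2 and 1 lower. SLBP gave 10699, 10274 and 10104 (0.00 and -0.01), while ZNF473, a component of the U7 processing machinery, gave 235, 210 and 87.2 (1.34 and 1.23) and CSTF2 gave 1269, 1250 and 2034 (-0.76 and -0.73). CPSF2 was dim, with 35.2, 39.7 and 20.3 (0.71 and 0.94), and SYMPK, a scaffold of the cleavage complex, gave 13778, 18046 and 19597 (-0.59 and -0.15).

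Of 10 genes of histone gene transcription, the medians were 0.15 and 0.13, 2 were lower by 1.5-fold in each knockdown and 1 and 0 were higher. NPAT, the coactivator of histone genes in S phase, gave 182, 169 and 187 (-0.12 and -0.18), and CASP8AP2, a component of the nuclear bodies at histone genes, gave 277, 307 and 453 (-0.80 and -0.59). CCNE2 stood at -0.68 and -0.77 and CCNE1, the other E-type cyclin, at 0.61 and 0.48. Of 10 genes of histone mRNA decay and translation, 0 were lower by 1.5-fold and 2 and 0 were higher, with medians of 0.19 and 0.08, among them LSM1 (0.61 and 0.54), part of the ring that binds decaying mRNA, and MIF4GD (0.60 and 0.57), a partner of SLBP in translation. The lowest of this list were UPF1 (-0.22 and -0.33) and ZCCHC6 (-0.18 and -0.13), a uridylyl transferase.

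The replacement variants, made from polyadenylated mRNA and not tied to S phase, had 11 measured genes with medians of 0.14 and -0.06, which became 0.44 and 0.26 with spike-in centring. CENPA gave 853, 951 and 1336 (-0.73 and -0.52) and was the 1 gene lower by 1.5-fold in KD1. H2AFZ gave 33890, 31405 and 40329 (-0.34 and -0.39), H2AFJ gave 5541, 5397 and 3706 (0.50 and 0.51), H1FX gave 1070, 929 and 773 (0.38 and 0.23), and H1F0 gave 30811, 24851 and 25274 (0.20 and -0.06). The plot of gene lists sets these groups beside the replication-dependent genes.

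**Figure D5:**
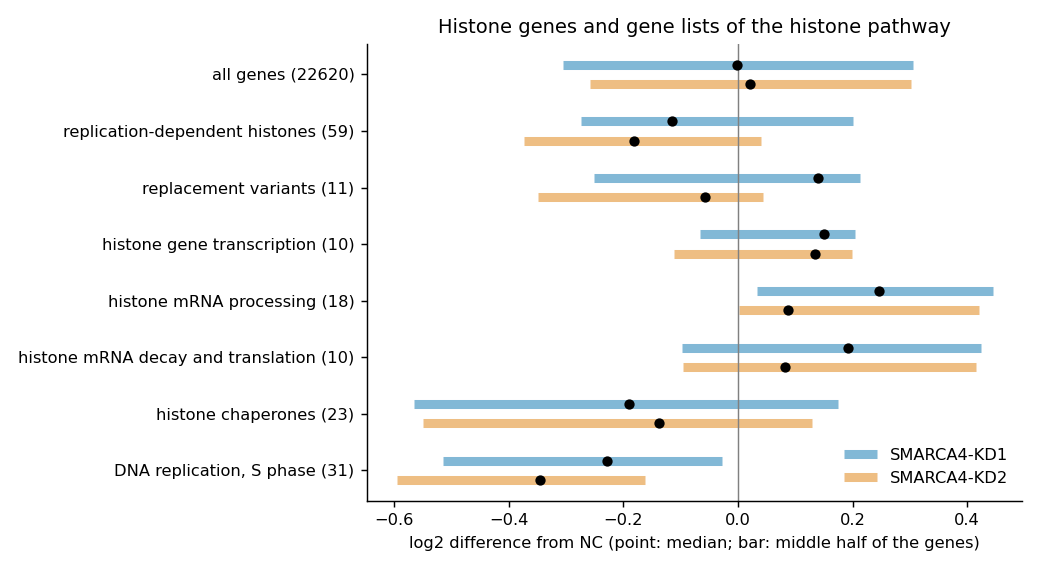
Median (point) and quartiles (bar) of the log2 difference from NC (x axis, percentile scaling) for the replication-dependent histone genes, 6 gene lists around them and all genes, in KD1 (blue) and KD2 (orange). The DNA replication list has the lowest medians of the plotted groups (-0.23 and -0.35), which spike-in centring moves to 0.07 and -0.03, with all genes at 0.30 and 0.34.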

How the data were processed

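The authors' deposited scanner files hold the processed intensity of each spot on 1-colour (Cy3) Agilent SurePrint G3 v3 human expression arrays, extracted with Agilent Feature Extraction 10.7.1.1 (per the labels), with background subtracted within the array and no scaling between arrays. The deposited series-level table holds the same intensity values and served as an alternative. No value column was left unmapped.

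From log2 intensity, each array's 75th percentile over non-control probes was subtracted. Outlier spots were left out, values not well above background were raised to the lowest value above it, and the brightest probe stood for a gene. At 1 array per group, differences of 1.5-fold or more were counted for each knockdown, without a test. Both knockdowns were tested against NC with limma 3.58.1 (R 4.3.3), using a trend over intensity and p-values adjusted by Benjamini-Hochberg over all genes. The scripts were tested on simulated data. Python 3.11.15, numpy 2.4.6, pandas 2.3.3 and matplotlib 3.10.9 were used. Sequences came from the array files (hg19) and RefSeq (GRCh38.p14).

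The members and gene lists were chosen with earlier results of these data known. Named were, per histone type, the 3 highest and 3 lowest genes by the mean of both differences, genes whose probes disagreed, polyadenylated and testis histones, and the extremes and main regulators of the other lists. Some single genes of the marker and other lists are not reported here. Alternatives were quantile and spike-in scaling, other percentiles, normexp with an offset of 50, other filters, no floor, probe means, a 2-fold threshold and other tests. The arrays limit precision by their number, as each group has 1.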

Additional observations from a re-analysis of the deposited data

How the results depend on the processing

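No paired analysis was possible because each group had 1 array. The counts below are histone genes past 1.5-fold, and medians are of the mean of both knockdowns (log2), where percentile scaling gave -0.17 for all members, 0.12 for H2B, -0.36 for H4 and 0.16 for H2B minus H2A within pairs. Spike-in centring, chosen after seeing the data, gave 10 higher in KD1, 0 lower and 10 higher in KD2, and 0 lower and 10 higher for the mean, where 26.3%, 27.6% and 26.8% of all genes were higher. Its medians were 0.14 for all members (0.19 in KD1, 0.13 in KD2), 0.14 for H2A, 0.43 for H2B, 0.24 for H3 and -0.051 for H4. Quantile normalization gave -0.43 for H4, 0.28 within pairs and -0.029 for H1. Taking the percentile over detected probes gave 1 higher in KD2 and 2 lower for the mean. With normexp, 2 were higher in KD1, 2 lower and 1 higher in KD2, 0 higher in KD1 than in KD2 and 2 higher for the mean, with medians of -0.11 for all members and 0.074 within pairs. Keeping probes well above background on all arrays left 1 higher in KD1 than in KD2 and an H1 median of -0.22. Without a filter the H2B median was -0.10 and the H1 median -0.15. Averaging the probes of a gene gave 1 lower in KD1 than in KD2, 2 lower for the mean and 0.22 within pairs. Counting probes gave 2 lower in KD1, 1 lower in KD1 than in KD2, 2 lower for the mean and 0.35 within pairs. At 2-fold, 0 were lower and 2 higher in KD1, 0 lower and 1 higher in KD2, and 0 lower and 1 higher for the mean. Apart from spike-in centring, the shares of all genes past the fold threshold at these settings were not counted. The fold counts at the other settings therefore cannot be called few or many. Without testis histones and pseudogenes, 0 were higher in KD1 than in KD2 and the H1 median was -0.22. By limma, 24 members passed at an unadjusted p of 0.05 and 17 at an adjusted p of 0.05 after dropping probes near background on any array, where 19504 genes were tested and refitted. The cause of these changes was not tested. Dim probes limit the values of HIST1H1T, HIST1H2AA, HIST3H2A and HIST2H2BE.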
